A study of Mus musculus with 14 samples.

Results

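The small intestine library was 1 of 14 small RNA libraries made from mouse tissues, all of the inbred strain C57BL/6J, and it is described here against the other 13. All names of the deposited table served as members: 1046 mature microRNA (miRNA) names were listed, 805 had a read in some library, and 457 reached 10 RPM, that is, 10 reads in 1000000 reads of the library, in at least 1 library and were compared. The other libraries were liver, brain, spleen, stomach, kidney, oesophagus, cerebellum, lung, ovary, heart and pancreas, and those labelled uterus and colon. The labels give strain and tissue for each library and no age, sex, treatment or genetic change. Each tissue had 1 library of total RNA pooled from several animals, with 5 mice given for the harvest and 10 for the pool, a difference that was not settled here. The whole wall of an organ holds epithelium, muscle, vessels, nerves and blood cells, and in such bulk RNA fewer cells of a type and less RNA per cell cannot be told apart. With 1 library per tissue no test was run. Every difference compares these libraries only, and the intervals at 95% confidence cover counting error alone.

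miRNAs are short RNAs that pair with messenger RNAs, mainly through bases 2 to 8 from their 5′ end, the seed, and lower their stability or translation. miRNAs with the same seed are predicted to share many targets. miR-192, miR-194 and miR-215 are known from the epithelium of the intestine, and miR-192 and miR-194 also from liver and kidney. The miR-200 family keeps epithelial cells in their epithelial state by acting on the Zeb transcription factors, and the miR-17~92 cluster with its paralogues is known from dividing cells such as those of intestinal crypts.

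Small intestine was the library with the most reads, 9341000, but miR-143, a miRNA of smooth muscle and other mesenchymal cells, held 53.6% of them. RPM was therefore computed on the total without miR-143, which was 4334136 reads in small intestine, the fifth largest of the 14, and ran from 86545 in the library labelled colon to 6502821 in kidney. A single read was a small unit in small intestine, where 3 reads were 0.692 RPM, and a coarse unit in the library labelled colon, where they were 34.7 RPM. The libraries labelled colon and uterus went against their labels in the names that mark intestinal epithelium. miR-215, miR-192 and miR-194 made up 18.3% of the reads without miR-143 in the library labelled uterus and 0.194% in the library labelled colon. Counts over the other 13 libraries are therefore also given without them.

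The 3 markers came from 2 pairs of neighbouring hairpins. Mir194-1 and Mir215 lie on chromosome 1 at chr1:185313319-185313385 and chr1:185313581-185313692, with 195 bases between them, and Mir194-2 and Mir192 lie on chromosome 19 at chr19:6264643-6264728 and chr19:6264844-6264932, with 115 bases between them, all on the plus strand of GRCm38.p6 in the RefSeq annotation. The mature sequences, from RefSeq, are printed 5′ to 3′ with the seed in capitals, because the shared seed of miR-215 and miR-192 bears on how the library is read. A star marks the arm of a hairpin that was taken as the less abundant arm.
miR-215: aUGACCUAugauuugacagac
miR-192: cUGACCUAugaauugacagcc
miR-194: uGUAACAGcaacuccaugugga
miR-215*: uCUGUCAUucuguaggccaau
miR-194-1*: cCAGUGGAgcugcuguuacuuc
miR-194-2*: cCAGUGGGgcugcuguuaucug
miR-215 and miR-192 differ at 3 of 21 bases, and the star arms of the 2 miR-194 hairpins at 4 of 22, so these names can be told apart by sequence. How the authors assigned reads that match near-identical names is not given in the sources used here.

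A few names held most of the small intestine reads. miR-215 alone made up 36.6% of the reads without miR-143, the 3 most abundant names (miR-215, miR-378 and miR-192) held 64.8%, the first 10 held 85.0% and the first 40 held 96.2%. Grouped by seed, 37 of those 40 names had a sequence to group by, which leaves out miR-378, the second most abundant name with 21.2% of the reads, miR-1 and miR-30d. The seed UGACCUA of miR-215 and miR-192 accounted for 43.7% of the reads, against 17.9% in the library labelled uterus, 5.19% in liver and 3.12% in kidney. Among the grouped names the let-7 seed GAGGUAG followed with 13.8%, then AGCUUAU of miR-21, a miRNA widely present across tissues, with 3.54%, and AAUACUG of miR-200b, miR-200c and miR-429 with 2.31%. The seed GUAACAG of miR-194 held 2.20%, and CAGUGCA of miR-148a, miR-148b and miR-152 held 1.65%. The number of names at 10 RPM or more was 219, the 10th of the 14 libraries, whose median was 238.5.

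By a rule of size, 30 of the 457 names were higher in small intestine than in the other libraries, that is, 100 RPM or more and a 4-fold or larger ratio to the median of the other 13 (6.56% of the names compared). A single name was lower by the mirrored rule (0.219%). The same 2 rules applied to each other library called 6 to 82 names higher, with a median of 32, and 2 to 74 lower, with a median of 9. The split of 30 higher against 1 lower was 23 against 4 with miR-143 counted in the total. With miR-143 again left out of the total, it was 26 against 6 without the libraries labelled colon, ovary and pancreas. Over all names the median difference was 0.11 (log2), and 243 names (53.2%) lay above the median of the others. The counts for lists below are to be read beside this share and the 6.56% called higher. Leaving out the libraries labelled colon and uterus kept all 30 names and gave 36 higher and 3 lower. Of the 30 names, 10 were highest in small intestine, 20 ranked 1 or 2, and 29 ranked 4 or better. The exception was miR-10b, which ranked 7th. Where another library was highest, it was the library labelled uterus for 5 names, kidney and spleen for 4 each, stomach for 3, oesophagus for 2, and brain and cerebellum for 1 each.

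**Figure D1:**
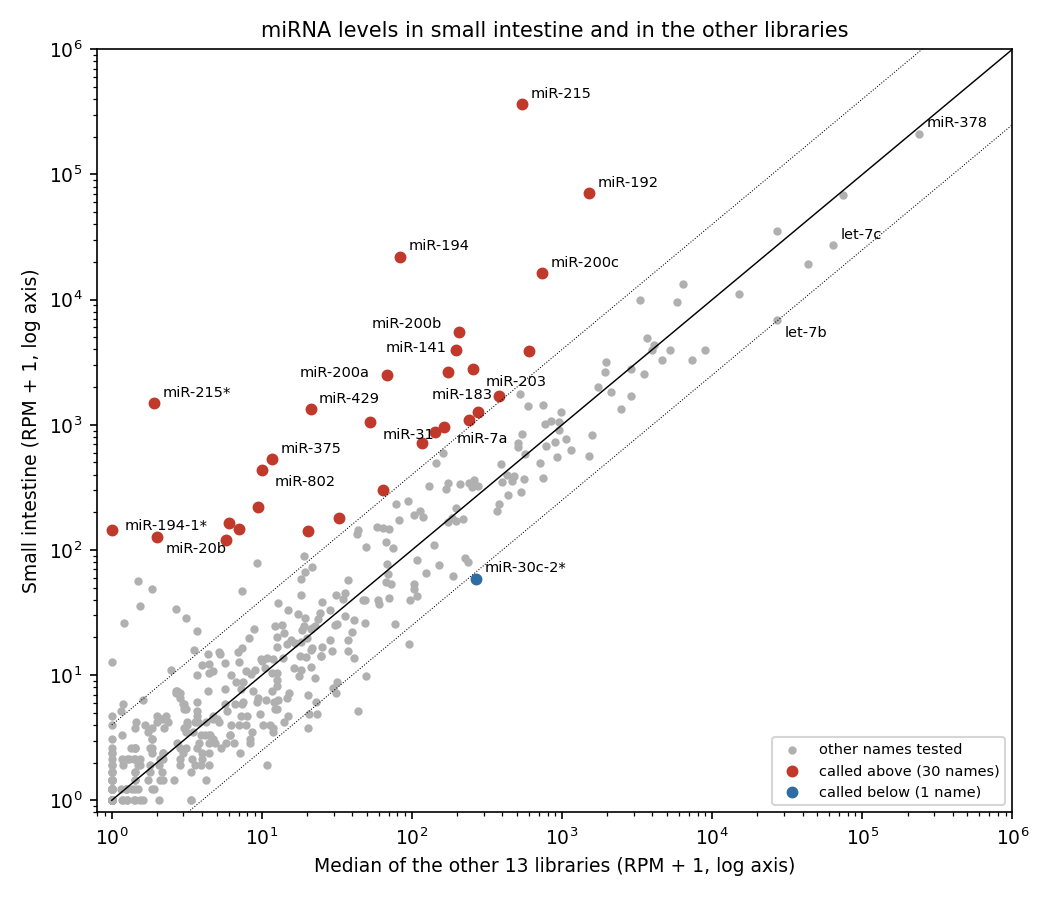
Level of each miRNA name in small intestine (vertical axis) against its median over the other 13 libraries (horizontal axis), both in RPM plus 1 on log axes, with 1 point per name. Solid and dotted lines mark equality and 4-fold differences, and the 30 names called higher sit above the upper dotted line at 100 RPM or more, while miR-30c-2* is the 1 name called lower.

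At 100 RPM or more, 11 names were highest of the 14 libraries in small intestine (2.41% of the names compared), and 4 of them reached at least 2 times every other library (0.875%). The 4 were miR-215, miR-215*, miR-194 and miR-194-1*, which are the arms of the Mir194-1 and Mir215 pair, although miR-194 itself can come from either miR-194 hairpin. The other 7 were miR-192, miR-200c, miR-141, miR-7a, miR-802, miR-20b and miR-17. In the other libraries, 2 to 54 names were highest, with a median of 10, and 0 to 32 reached 2 times every other library, with a median of 4. Small intestine was thus near the middle of the libraries in the number of such names. Without the libraries labelled colon and uterus, 15 names were highest in small intestine and 4 reached 2 times every other library.

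The intestinal list held 6 names, of which miR-194* had no match under that name. The matched names were miR-215, miR-194, miR-192, miR-215* and miR-192*. All 5 lay above the median of the others, under each of the 8 scalings or sets of libraries compared for lists. Of these, 4 were called higher, and the median difference of the list was 8.04 (log2) beside 0.11 over all names, with 6.78 to 8.67 under the alternatives. miR-215 stood at 365682 RPM in small intestine, and over the other libraries the lowest value was 35.2 in pancreas, the median 538 and the highest 118373 in the library labelled uterus. Oesophagus with 18309 RPM, lung with 7983 and stomach with 3864 came next. The ratio to the library labelled uterus was 3.09 (3.08–3.10), and without the libraries labelled colon and uterus the ratio to the highest, oesophagus, was 19.97.

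miR-194 stood at 21997 RPM (21857–22137), against a lowest value of 8.37 in pancreas, a median of 82.7 and a highest of 3580 in the library labelled uterus, a ratio of 6.14 (6.03–6.26). Liver with 2263 RPM and kidney with 2174 followed, so that small intestine was 9.72-fold above the highest tissue outside the library labelled uterus. miR-192 was less particular to the small intestine library. It stood at 71090 RPM there, 60551 in the library labelled uterus, 51510 in liver, 30974 in kidney and 18135 in stomach, with a median of 1514 over the other 13 and a lowest value of 328 in ovary. Its place above all other libraries held with the total without miR-143 but not with 3 other scalings: the log2 ratio to the highest other library was −0.55 with miR-143 counted in the total, −0.93 with median-of-ratios factors and −1.20 with trimmed-mean (TMM) factors.

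The star arms were rarer, and those of the chromosome 1 pair stood out most. miR-215* had 6408 reads and 1479 RPM, against 93.8 RPM in the library labelled uterus, 22.5 in oesophagus, 12.996 in lung and 12.3 in stomach, and a median of 0.923. miR-194-1* had 616 reads and 142 RPM, against 10.1 RPM in the library labelled uterus and 5.93 in oesophagus, with 0 reads in 7 of the other libraries. miR-194-2* stood at 146 RPM and was below the library labelled uterus with 184, and miR-192* stood at 24.9 RPM.

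**Figure D2:**
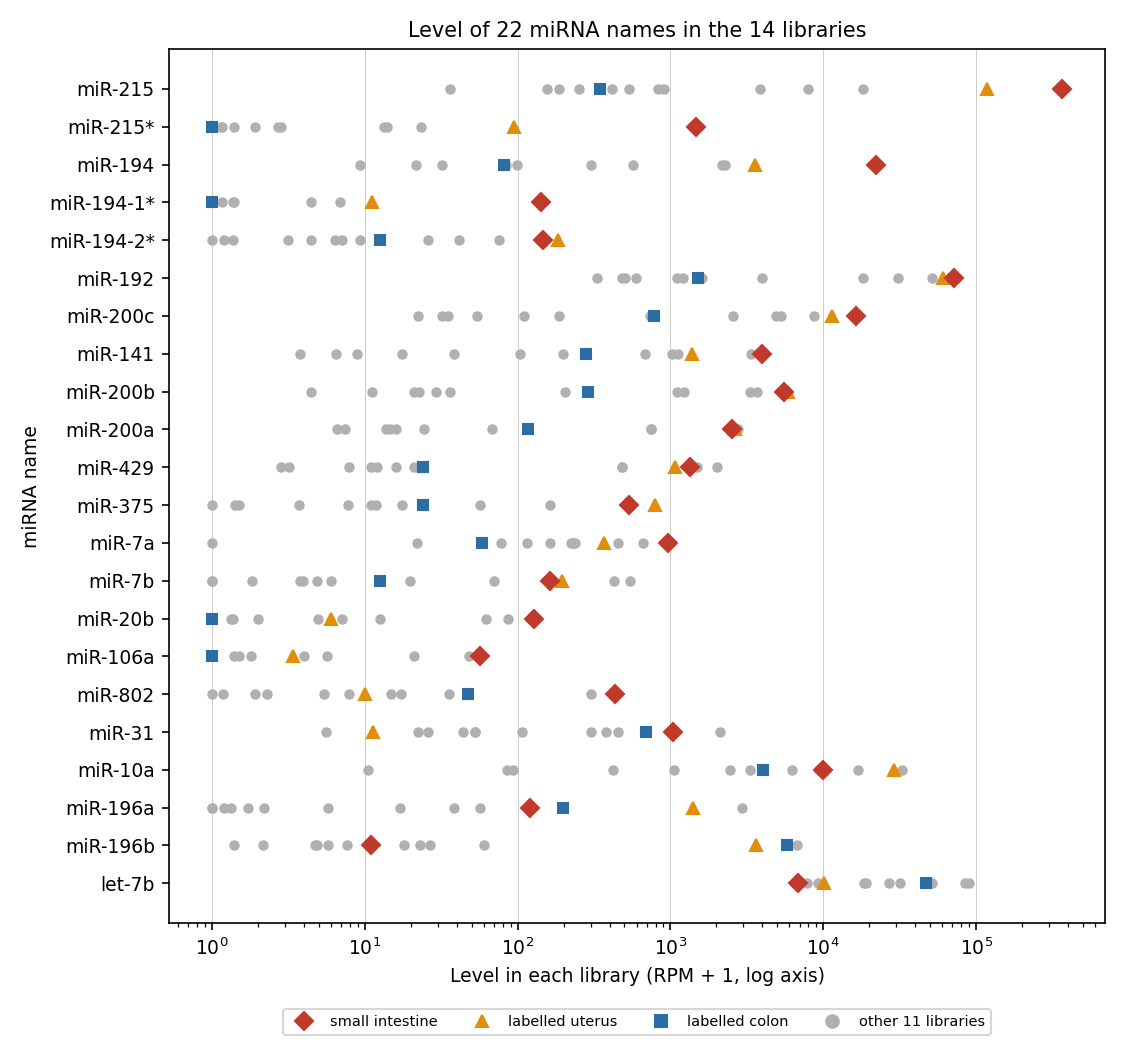
Level of 22 miRNA names (vertical axis) in each of the 14 libraries (RPM plus 1, log axis), with small intestine as a red diamond, the libraries labelled uterus and colon as an orange triangle and a blue square, and the other 11 in grey. For miR-215, miR-215*, miR-194 and miR-194-1* the diamond is the rightmost point by at least 2-fold, while for miR-196b and let-7b it lies among or below the other libraries.

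Ratios within a library do not depend on its total. Reads of the names from the pairs of hairpins on chromosomes 1 and 19 stood in different proportions across libraries. miR-215 made up 83.7% (83.67–83.78) of the reads of miR-215 and miR-192 together in small intestine, 91.9% in oesophagus, 66.9% in lung and 66.2% in the library labelled uterus. In the 2 tissues other than intestine known for miR-192 the share was at the low end, with 0.793% in liver and 0.598% in kidney, and it was 17.6% in stomach. The star arms of the miR-194 hairpins gave a like order from separate reads. In small intestine miR-194-1* had 616 and miR-194-2* 634 reads, a share of 49.3% (46.5–52.1) for the chromosome 1 hairpin. Oesophagus had 24 and 22 reads (52.2%, 36.9–67.1) and lung 8 and 14 (36.4%, 17.2–59.3). The share was 5.21% (3.71–7.08) in the library labelled uterus, 1.56% in stomach and 0.224% in liver, and kidney had 0 of 261 reads, for which the interval reaches 1.40%. The libraries of small intestine and labelled uterus, the 2 with the most miR-215, thus differed in this share by more than counting error. miR-194, which both pairs can give, made up 4.79% of its reads with miR-192 and miR-215 in small intestine. Its share was 1.96% in the library labelled uterus and lowest in oesophagus, at 0.414%, where miR-194 had 335 reads beside 74138 of miR-215. Within the miR-215 hairpin, the star arm held 0.403% (0.393–0.413) of the reads of both arms in small intestine, more than in any other library by point value, and 0.0791% (0.0711–0.0879) in the library labelled uterus. The intervals of several libraries, among them stomach (0.318%, 0.216–0.452), spleen and brain, reach the small intestine value, so its first place is within counting error.

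**Figure D3:**
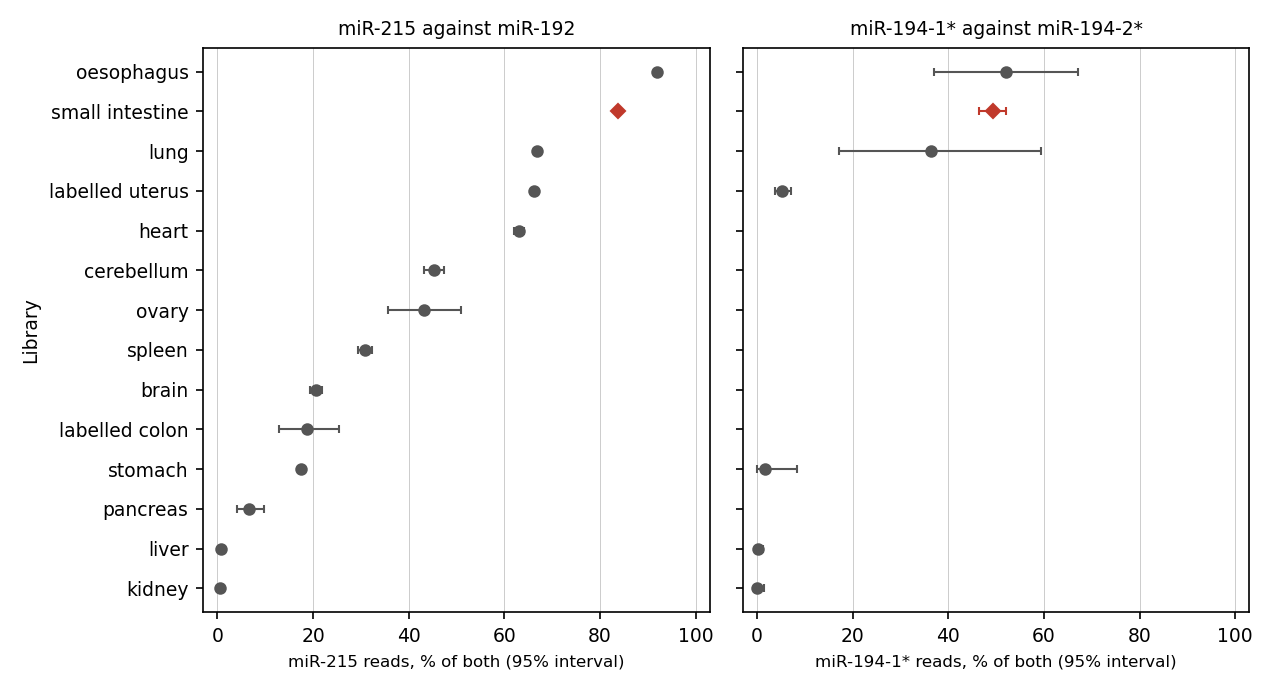
Share of miR-215 in the reads of miR-215 and miR-192 (left) and of miR-194-1* in the reads of both miR-194 star arms (right), in percent with exact 95% binomial intervals, by library. Small intestine (red) is at 83.7% and 49.3%, kidney and liver are below 1% in both panels, and libraries with fewer than 20 reads of a pair have no point.

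All 5 members of the miR-200 family were called higher in small intestine, with a median difference of 4.74 (log2), and all 5 lay above the median of the others under each of the 8 scalings or sets of libraries. The size depended on the libraries compared with, since the median was 6.44 without the libraries labelled colon and uterus and 3.27 without those labelled colon, ovary and pancreas. Together they held 2.96% of the reads, the largest share of the 14 libraries, with 2.23% in the library labelled uterus next. They come from 2 clusters, Mir200c with Mir141 and Mir200b with Mir200a and Mir429, and carry 2 seeds that differ at 1 base, as these sequences show.
miR-200c: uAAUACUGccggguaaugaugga
miR-200b: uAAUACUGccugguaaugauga
miR-429: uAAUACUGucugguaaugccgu
miR-200a: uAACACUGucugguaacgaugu
miR-141: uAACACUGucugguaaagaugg
miR-200c was highest in small intestine, at 16273 RPM, 1.43-fold (1.42–1.45) above the library labelled uterus and 1.86-fold above stomach. miR-141 was highest too, at 3988 RPM against 3370 in stomach, a ratio of 1.18 (1.15–1.22). The 3 members of the other cluster did not lead: miR-200b stood at 5493 RPM (5837 in the library labelled uterus), miR-200a at 2520 (2751 in kidney) and miR-429 at 1335 (2023 in kidney). miR-200c and miR-141 made up 68.4% of the reads of the family in small intestine, the 7th of the 14 libraries, against 31.2% in kidney. The lowest library was cerebellum for 4 of the 5 names and ovary for miR-200b.

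Names known from secretory, endocrine and sensory cells were also higher. Of the 6 listed, all lay above the median of the others under each of the 8 scalings or sets of libraries, 5 were called higher, and the median difference was 3.50 (log2), with 2.59 to 4.15 under the alternatives. Their summed level, 8245 RPM, was the second of the 14 libraries after that labelled uterus with 10362. miR-375, a miRNA of pancreatic islets and of intestinal endocrine and goblet cells, stood at 533 RPM, against 796 in the library labelled uterus, 528 in stomach, 161 in pancreas and a median of 10.8. miR-7a, known from neurons and endocrine cells, stood at 963 RPM and was highest in small intestine, 1.45-fold (1.38–1.52) above brain, but was below the highest other library with miR-143 counted in the total (log2 ratio −0.48). miR-7b, its near copy, stood at 162 RPM behind cerebellum (541), brain (426) and the library labelled uterus (195). miR-183, miR-96 and miR-182 form a cluster known from sensory and secretory cells, and had 2657, 77.3 and 3854 RPM in small intestine. Each was higher in some other library, at 4075 RPM in oesophagus for miR-183, 81.0 in lung for miR-96 and 5315 in the library labelled uterus for miR-182.

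All 12 matched names of the miR-17~92 cluster and its paralogues lay above the median of the others, under each of the 8 scalings or sets of libraries, with a median difference of 2.20 (log2), and 1.82 to 2.84 under the alternatives. By the rule of size 3 were called higher, namely miR-20a, miR-92a and miR-20b, and miR-17 missed it at 3.73-fold. Their summed level was 4927 RPM in small intestine and 6035 in spleen, an organ rich in blood cells, with a median of 1722. miR-20a stood at 873 RPM in small intestine and 878 in spleen, a ratio of 0.994 (0.942–1.05), so that their order is within counting error. miR-17 stood at 594 RPM against 509 in spleen, a ratio of 1.17 (1.09–1.25) that turned to a log2 ratio of −0.068 with miR-143 counted in the total. miR-92a stood at 719 RPM, miR-93 at 1768 and miR-106b at 307, all below spleen.

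The X-linked copy of the cluster holds miR-106a, miR-18b and miR-20b. Beside their main-cluster counterparts, these names held larger shares in small intestine, spleen and kidney than in the other libraries with 20 reads or more. By the rule of size miR-20b was called higher, while miR-106a at 55.8 RPM and miR-18b at 11.8 RPM were not. The listed name miR-363 had no match, and miR-363-3p, which was compared, was not called higher. The sequences of miR-20b and miR-106a are printed because they are close to those of the main cluster, with the bases that differ within each pair in capitals.
miR-20b: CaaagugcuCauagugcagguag
miR-20a: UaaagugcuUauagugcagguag
miR-106a: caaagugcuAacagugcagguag
miR-17: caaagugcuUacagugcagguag
miR-20b had 548 reads and 126 RPM in small intestine, 85.5 RPM in spleen and 61.1 in kidney, and at most 11.6 in each of the other 11, with a median of 1.004 over the other 13. The ratio to spleen was 1.48 (1.26–1.75). As a share of miR-20b and miR-20a, it made up 12.7% (11.7–13.7) in small intestine, 13.8% in kidney and 8.87% in spleen, and at most 2.42% in the other 7 libraries with 20 reads or more of the pair. miR-106a made up 8.59% (7.58–9.69) of its reads with miR-17 in small intestine, 8.53% in spleen, 6.63% in kidney and at most 1.48% elsewhere. miR-18b showed the same 3 libraries, with 11.8% in small intestine, 12.7% in spleen and 12.7% in kidney of its reads with miR-18a. The libraries labelled uterus and stomach, the nearest to small intestine in profile, were among those with low shares, at 2.35% and 0.999% for miR-20b. miR-106a and miR-17 differ at 1 base and miR-20b and miR-20a at 2, so that reads with an error or an untemplated base could be counted under either name, and this was not tested.

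**Figure D4:**
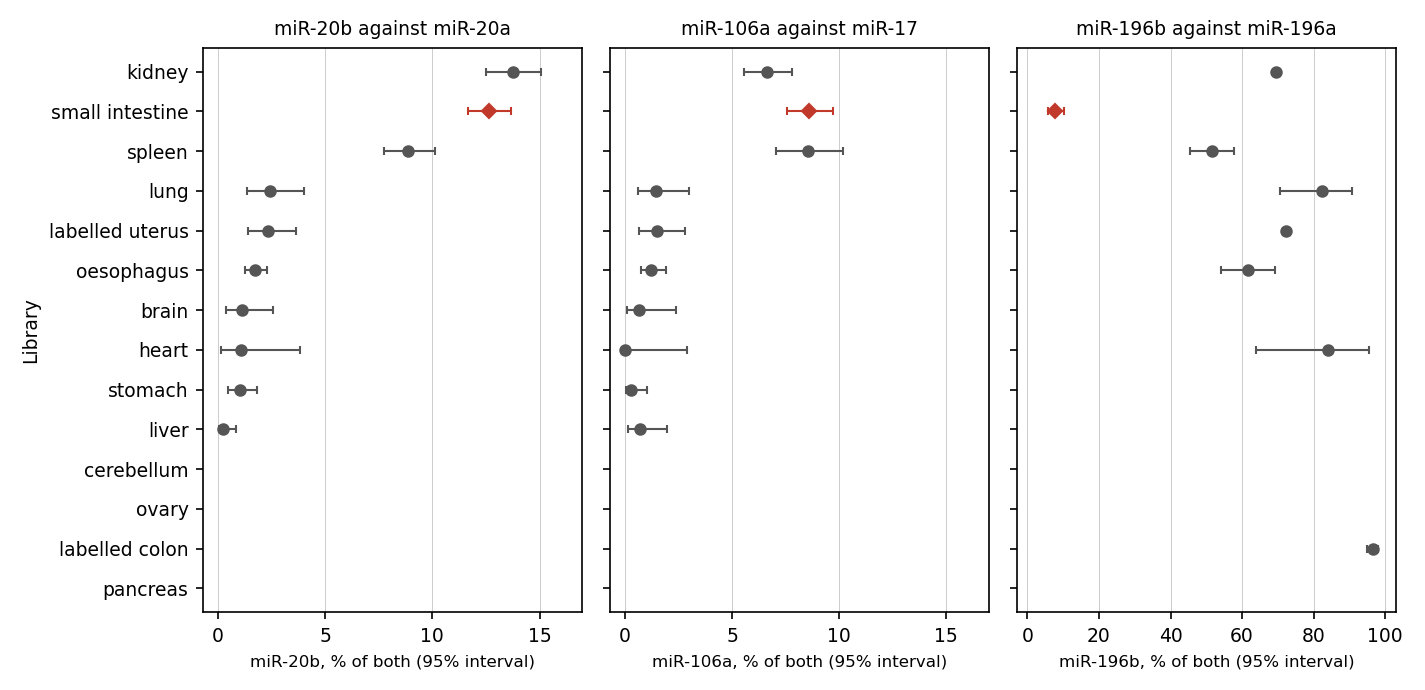
Shares of miR-20b in reads of miR-20b and miR-20a (left), of miR-106a in reads of miR-106a and miR-17 (middle) and of miR-196b in reads of miR-196b and miR-196a (right), in percent with exact 95% binomial intervals, by library. Small intestine (red), kidney and spleen lie above 6% in the left and middle panels and all other libraries below 3%, and small intestine is the lowest in the right panel at 7.68%. Libraries with fewer than 20 reads of a pair have no point.

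Hox cluster miRNAs are encoded next to Hox genes, which set positions along the body. In small intestine 4 of the 5 lay above the median of the others, beside 53.2% of all names. The rule of size called 2 higher, beside 6.56% of all names. The median difference was 2.20 (log2), and 1.52 with miR-143 counted in the total. miR-10a stood at 9928 RPM, behind kidney (32719), the library labelled uterus and lung. miR-10b stood at 1266 RPM and ranked 7th, though it was 4.59-fold above the median. The miR-196 pair departed most. The mature sequences differ at 1 base, shown in capitals.
miR-196a: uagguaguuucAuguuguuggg
miR-196b: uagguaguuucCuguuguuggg
miR-196a stood at 119 RPM (109–130), against 2927 in kidney, 1402 in the library labelled uterus, 196 in the library labelled colon and 1.19 in stomach. miR-196b stood at 9.92 RPM (7.18–13.4), against 6681 in kidney, 3636 in the library labelled uterus and 5789 in the library labelled colon. Small intestine was thus the 1 library of 8 with 20 reads or more of the pair in which miR-196a prevailed: miR-196b made up 7.68% (5.61–10.2) of the pair, and 51.7% to 96.7% in the other 7. Ovary, with 5 reads of miR-196b and 11 of miR-196a, was under that minimum.

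On the crypt and inflammation-linked list 4 of 9 names lay above the median of the others, beside 53.2% of all names (median difference −0.01, log2). The median difference was 0.23 with miR-143 counted in the total. It ran from −0.30 with TMM factors to 0.62 with miR-215 also left out of the total, where all names had 0.53. By the rule of size 1 name was called higher. This was miR-31, a miRNA reported from intestinal stem cells and squamous epithelium, which stood at 1043 RPM in small intestine, second to stomach with 2103 and followed by the library labelled colon with 693. It was at 10.4 RPM in the library labelled uterus, and the median was 51.7. miR-802, known from hepatocytes and enterocytes, stood at 436 RPM (416–456), against 303 in pancreas, 34.6 in stomach and a median of 9.06. It was at 46.2 RPM in both liver and the library labelled colon, where the value rested on 4 reads. The ratio to pancreas was 1.44 (1.23–1.68), but miR-802 was below the highest other library under 4 other scalings, with log2 ratios from −0.52 to −2.42. miR-203, a miRNA of squamous epithelium, stood at 2792 RPM behind oesophagus with 25352 and stomach, while miR-205, the other squamous name, was at 1.15 RPM. Of the 12 neural names listed 10 had a match, and 8 of these lay above the median of the others (median difference 1.30, log2). Without the libraries labelled colon, ovary and pancreas 5 did so (0.25). The 1 neural name called higher was miR-138, at 180 RPM against 12846 in brain, and it was called in 7 of the 13 other settings. miR-200b*, the star arm of miR-200b, was called higher as well, at 220 RPM.

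Names from other cells of the gut wall differed by group. Over all names 53.2% lay above the median and 6.56% were called higher. Of the 7 leukocyte names 6 lay above the median, or 4 without the libraries labelled colon, ovary and pancreas, and 1 was called higher, miR-142-3p of blood cells, at 1703 RPM, the second after spleen with 22075. The lymphocyte names miR-150 and miR-155 stood at 42.9 and 19.2 RPM, against 1675 and 502 in spleen, and the summed level of the list was 3402 RPM against 44051 in spleen. All 3 erythroid names were below the median of the others under each of the 8 scalings or sets of libraries, and miR-451 of red blood cells stood at 42.0 RPM against a median of 107.5. All 4 smooth muscle names lay above the median under each of the 8 scalings or sets of libraries, with a median difference of 1.82 (log2), 2.47 with median-of-ratios factors, and 2 called higher, miR-145 and miR-143*. Those other than miR-143 summed to 1629 RPM, the third of the 14 after stomach (6062) and the library labelled colon (3097), with miR-145 at 1085 and miR-143* at 301. The endothelial pair miR-126-3p and miR-126-5p lay above the median by 0.51 (log2), but 0 of 2 did so with miR-143 counted in the total or with median-of-ratios or TMM factors. Without the libraries labelled colon, ovary and pancreas 0 of 2 did so (−0.55), and without those labelled colon and uterus 1 of 2 (−0.22). The 4 fibroblast names lay 0.46 to 0.61 (log2) above the median with 0 called, and 3 of the 4 were above with TMM factors or without the 5 most abundant names in the total.

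Markers of liver and pancreas other than miR-802 stood far below their levels in those organs. Of the 3 names on the hepatocyte list, miR-802 was the 1 above the median of the others, and it was called higher. The hepatocyte name miR-122 stood at 16.6 RPM in small intestine, the 12th of 14, against 466024 in liver, and its star arm had 0 reads. The acinar names miR-217 and miR-216a were at 24.0 and 11.1 RPM, above the median of the others but against 3091 and 610 in pancreas, and the 3 acinar names summed to 39.2 RPM. These are the defining names of liver and pancreas, the other tissues with miR-802 above 40 RPM beside the library labelled colon with its 4 reads. Their part in the miR-802 level was not tested. Striated muscle names summed to 4999 RPM, almost all of it miR-1 at 4967, while miR-208a-3p and miR-499 had 0 reads.

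The let-7 family lay on the other side. None of its 9 names exceeded the median of the others (median difference −0.77, log2, and −0.11 with miR-215 also left out of the total), although 3 did with median-of-ratios factors, 1 with TMM factors, 3 with miR-215 also left out of the total and 1 without the libraries labelled colon, ovary and pancreas. The family held 13.9% of the small intestine reads, the 11th of the 14 libraries, with 87.3% in ovary and 6.75% in heart at the ends. let-7b was among the lowest of all names relative to the others, at 6821 RPM against a median of 26867, the 13th of 14, and oesophagus alone was lower. let-7c stood at 27161 RPM against 63316. miR-215 took 36.6% of the reads, and leaving it out of the total as well moved the median difference of all names by 0.42 (log2). Leaving the 5 most abundant names out of each total moved it by −0.066. The let-7 median was then −0.69, with 0 of 9 names above. How far the total sets the let-7 levels was not tested. The 1 name called lower was miR-30c-2*, at 57.9 RPM (51.0–65.5), against a median of 267 and 1165 in cerebellum. Pancreas with 35 reads was at 58.6 RPM, so that the order of these lowest libraries is within counting error. With miR-215 also left out of the total 0 names were called lower. The miR-30 family, known from kidney and other differentiated epithelia, had 2 of 5 names above the median, beside 53.2% of all names.

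The library labelled uterus was the closest to small intestine in rank order of names (Spearman's rho 0.929 across 456 names, 0.918 across the 354 that are on no list), followed by stomach (0.890), oesophagus (0.855) and kidney (0.849). The library labelled colon came 9th at 0.766, with the fewest reads. These correlations are across names, which are not independent, and share the depth of the small intestine library. Against the library labelled uterus, 10 names were at least 4-fold higher in small intestine (2.19%) and 3 were lower (0.656%). miR-31 differed most, at 1043 RPM against 10.4, a ratio of 100.4 (73.3–141.4). miR-802 followed with 48.1-fold (34.3–69.7), and miR-20b with 24.98-fold (15.8–41.8). miR-215* and miR-194-1* were 15.8-fold and 14.0-fold higher, while miR-192 was 1.17-fold higher. miR-32, miR-142-3p, miR-126-3p and miR-20a were 4.14-fold to 5.11-fold higher. The 3 names higher in the library labelled uterus were all Hox cluster names: miR-196b by 366.5-fold (271.9–506.6), miR-196a by 11.8-fold and miR-10b by 5.71-fold.

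**Figure D5:**
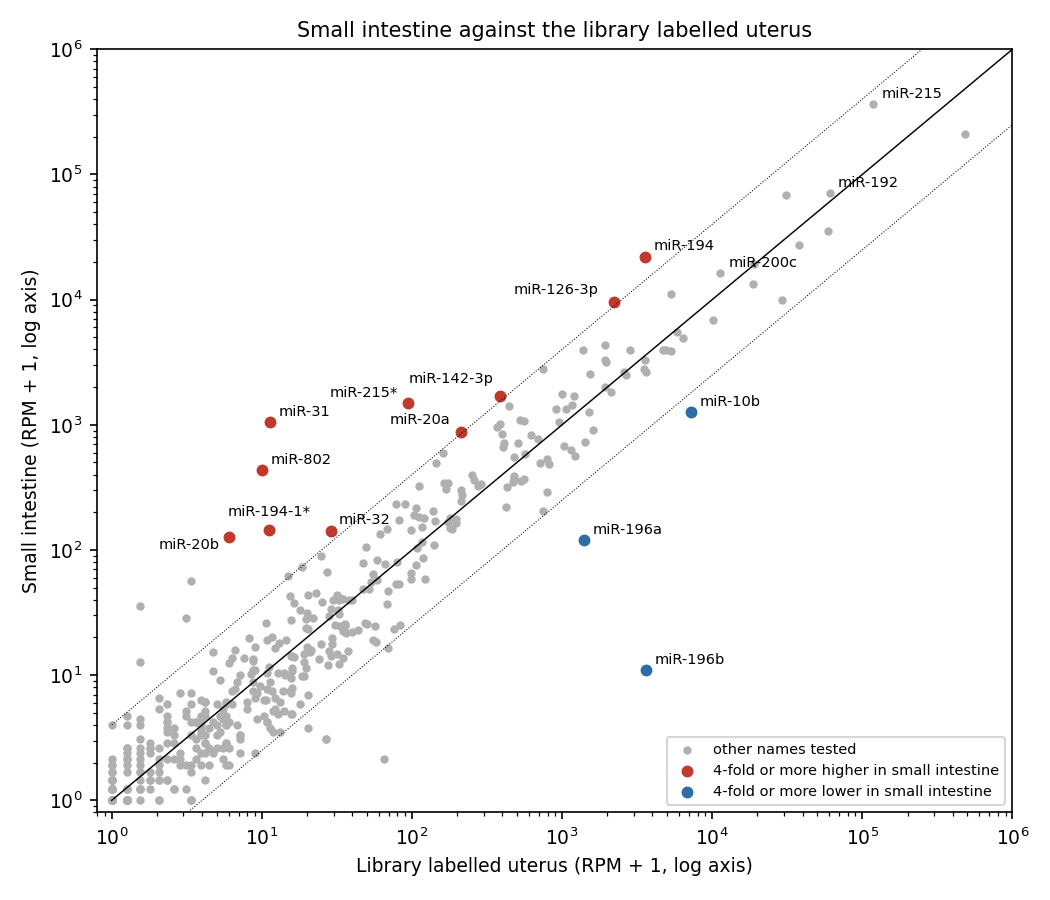
Level of each miRNA name in small intestine (vertical axis) against the library labelled uterus (horizontal axis), in RPM plus 1 on log axes, with 1 point per name and lines at equality and 4-fold. The 10 names higher in small intestine are led by miR-31 and miR-802, and the 3 lower ones are miR-196b, miR-196a and miR-10b, while miR-192 and miR-200c lie near equality.

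Against stomach, the neighbouring organ upstream, 10 names were higher in small intestine (2.19%) and 22 lower (4.81%). miR-215 was 94.6-fold (92.8–96.5) and miR-215* 119.8-fold (84.3–176.5) higher, miR-194 38.5-fold (36.5–40.6) and miR-802 12.6-fold (10.1–15.8). miR-194-1* had 616 reads against 1, and miR-196a 517 against 3, with ratios of 357 (63.8–14123) and 99.9 (34.0–486). miR-192 was not among the 10. Lower names were led by miR-205, at 1.15 RPM against 707, a difference of 613-fold (262–1889). miR-203*, the star arm of squamous miR-203, followed with 23.7-fold, and miR-184 with 19.2-fold. The split turned to 21 higher against 4 lower with median-of-ratios factors and 16 against 6 with TMM factors, so its balance depends on the total.

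Against the library labelled colon, 31 names were higher in small intestine (6.78%) and 35 lower (7.66%), a split of 88 against 0 with miR-143 counted in the total. Higher names included miR-20b with 548 reads against 0, at least 3.65-fold on a floor of 3 reads. Also higher were miR-429 and miR-375, each with 2 reads in the library labelled colon, with ratios of 57.8 (15.99–477) and 23.1 (6.37–190.5). Lower names were led by miR-196b, 583-fold (427–816), with 43 reads in small intestine and 501 in the other library. miR-122 was also higher in the library labelled colon, at 1340 RPM against 16.6. miR-143 itself is among the 35, since it was left out of the total only.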

How the data were processed

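The deposited table holds the authors' unscaled counts, whole numbers of reads for each miRNA name in each library. Per the labels' protocols, total RNA was extracted with Trizol, pooled over animals and made into libraries by standard Illumina procedures. The aligner, its settings, the release of the miRNA reference and the genome build were not given in the sources used here, nor how reads matching several names were treated.

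Counts were divided by the library total without miR-143 and multiplied by 1000000 to give RPM. A name was compared where it reached 10 RPM in at least 1 library. In the library labelled colon 1 read exceeds that level, so its reads add names. Higher and lower names needed 100 RPM and 4-fold against the median of the other 13 libraries, with 1 RPM added to both, and pairs needed 100 RPM in the higher library and 4-fold. The self-test of these rules on simulated counts ran before use. RPM has exact Poisson intervals, shares exact Clopper-Pearson intervals and ratios exact conditional binomial intervals. Reads carry no molecular identifiers here, so sampling of reads is the only error that these intervals describe. Tissues have 1 library each and no replicates, and the rules of size took the place of tests.

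Named miRNAs were the members of 19 lists (109 distinct names, 4 unmatched), the 20 most abundant names, the 15 with the largest ratio to the maximum and to the median of the others and the 15 with the smallest, up to 8 per direction of each pair, and 6 hairpins by arm ratio. miR-10b as the exception in rank, and miR-138 and miR-200b* among the names called higher, were named after their values were seen. Members, lists and rules were chosen with earlier results of these data known. Alternatives were totals with miR-143, median-of-ratios factors (DESeq2 1.42.0), TMM factors (edgeR 4.0.16, R 4.3.3), totals without the 5 most abundant names, other levels, folds and pseudocounts, all names with a read, identical names once, and fewer libraries. Totals without miR-143 and miR-215 were added after the data were seen. Python 3.11.15 with scipy 1.17.1 served for the rest. Sequences came from RefSeq (GRCm38.p6), for 57 of 59 names looked up.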

Additional observations from a re-analysis of the deposited data

How the results depend on the processing

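The count of 30 names higher than the median of the others was the same in 5 alternatives and ranged from 16 at 1000 RPM to 44 with miR-215 also left out of the total, and 11 of the 30 were called in every setting. The single lower name became 4 with miR-143 in the total, 2 with median-of-ratios or TMM factors, 4 without the 5 most abundant names, 2 at 50 RPM, 0 at 1000 RPM or at 8-fold, 3 without the libraries labelled colon and uterus, 6 without those labelled colon, ovary and pancreas, and 0 with miR-215 left out. The 11 highest names became 6 with miR-143 in the total and at 1000 RPM, 18 without the 5 most abundant names and 29 with miR-215 left out, which also raised the 4 names at 2-fold over every other library to 8. Against the library labelled uterus, the 10 higher names became 5 at 1000 RPM or 8-fold and 20 with miR-215 left out, and the 3 lower ones 5 at 50 RPM or without the 5 most abundant names. Against stomach, the 10 higher names became 21 with median-of-ratios, 16 with TMM and without the 5 most abundant names, 3 at 1000 RPM and 17 with miR-215 left out. The 22 lower ones became 6 with miR-143 in the total, 4 with median-of-ratios, 6 with TMM, 34 at 50 RPM, 7 at 1000 RPM, 8 at 8-fold and 12 with miR-215 left out. Against the library labelled colon, 31 higher and 35 lower became 88 and 0 with miR-143 in the total and 14 and 18 at 1000 RPM, and the lower ones 15 with TMM and 60 without the 5 most abundant names. For single names highest in small intestine, the log2 ratio to the highest other library reversed for miR-192 (−0.55 with miR-143 in the total, −0.93 with median-of-ratios, −1.20 with TMM), miR-802 (−0.52, −2.42 and −1.47 in that order, and −0.72 without the 5 most abundant names), miR-7a (−0.48) and miR-17 (−0.068), both with miR-143 in the total. The cause of these shifts was not tested. Depth limits names under about 10 RPM in ovary and 35 RPM in the library labelled colon, where 3 reads are 10.3 and 34.7 RPM. No paired analysis was possible because each tissue has 1 library.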

Other observations

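Arm use was compared for the 6 hairpins whose arm ratio in small intestine lay farthest from the other libraries, and all 6 rest on few reads. miR-98*, from a let-7 family hairpin, had 13 reads beside 1190 of miR-98, a share of 1.08% (0.577–1.84) against a median of 0.0778% in the others. miR-30d* had 12 reads beside 12060 of miR-30d, 0.0994% (0.0514–0.174) against a median of 0.377% and a lowest share of 0.082% in kidney. miR-30b* had 0 reads beside 926 of miR-30b, for which the interval reaches 0.398%, against a median of 0.501%. The library labelled colon had 0% as well. miR-541* had 3 reads, and miR-130a* and miR-34c* had 0, as they also had in cerebellum and in spleen, in that order.

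Of the crypt and inflammation-linked list, which includes miR-31, 4 of 9 names lay above the median of the others, beside 53.2% of all names. Under 4 of the other scalings or sets of libraries 5 or 7 lay above. miR-21 stood at 35387 RPM, the 6th of 14, and miR-29b at 174 RPM against a median of 81.0. miR-34a, a target of p53, stood at 4.38 RPM against 11.5, and miR-29a at 1334 RPM against 2456. Among multiciliated cell names 0 of 4 lay above the median, although 2 did with TMM factors, and miR-449a had 0 reads.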
